A study of Mus musculus with 12 samples.

Results

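Large-subunit ribosome assembly factors are proteins that process, fold and carry the precursor of the 28S rRNA on its way into the 60S ribosomal subunit. The 36 genes described here were chosen by name, as nucleolar and export factors of this pathway, and all 36 were found among the 13768 genes of the deposited complete tables, in the wild-type table as well as in the knockout table. The cells are C2C12, an established mouse myoblast line, and the series set polysomal RNA, the mRNAs that carry several ribosomes, against total cellular RNA in each genotype. The groups are Ddx27-/- polysomal RNA (3 libraries), Ddx27-/- total RNA (2 libraries with values, of 3 labelled samples), wild-type polysomal RNA (3 libraries) and wild-type total RNA (3 libraries). The knockout targets Ddx27, a nucleolar DEAD-box helicase that is itself a large-subunit factor and whose reads were lower but not absent in the knockout libraries, and the labels name no drug, no treatment and no clone for either genotype. Separate cultures are not named for the samples of a group, so p-values measure only the spread between these samples, which may be technical.

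The large subunit is built in the nucleolus around a long precursor rRNA, whose spacers are cut and trimmed while the RNA is folded and modified. DEAD-box helicases unwind RNA helices, methyltransferases mark bases and riboses, GTPases time single steps, and large AAA-type ATPases pull factors off the finished particle before it leaves the nucleus. In dividing cells the mRNAs of these factors are known as part of the growth programme of the cell. In bulk samples such as these, fewer cells of a kind and less RNA per cell cannot be told apart.

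The promoters of 4 genes are shown because these genes mark the ends of the patterns described below: Ebna1bp2 and Nip7 were among the members most enriched in wild-type polysomal RNA, Nop2 had the lowest knockout polysomal level relative to the wild type, and Mdn1 was the member most depleted from wild-type polysomal RNA. Each runs 5′ to 3′ on the + strand from 250 bases before to 50 bases after a start that RefSeq lists for the gene on GRCm38.p6 (for Mdn1 a few bases from the start of the gene record), and capitals mark CCGGAA and CACGTG on either strand (TTCCGG is CCGGAA on the other strand). The positions are chr4:118620549-118620848 for Ebna1bp2, chr8:107056627-107056926 for Nip7, chr6:125131633-125131932 for Nop2 and chr4:32656869-32657168 for Mdn1.
Ebna1bp2: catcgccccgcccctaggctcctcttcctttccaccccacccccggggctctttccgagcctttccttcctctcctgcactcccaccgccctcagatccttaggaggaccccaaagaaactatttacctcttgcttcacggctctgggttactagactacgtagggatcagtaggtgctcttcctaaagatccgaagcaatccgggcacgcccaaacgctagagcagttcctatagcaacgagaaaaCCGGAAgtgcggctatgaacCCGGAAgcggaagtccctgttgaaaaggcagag
Nip7: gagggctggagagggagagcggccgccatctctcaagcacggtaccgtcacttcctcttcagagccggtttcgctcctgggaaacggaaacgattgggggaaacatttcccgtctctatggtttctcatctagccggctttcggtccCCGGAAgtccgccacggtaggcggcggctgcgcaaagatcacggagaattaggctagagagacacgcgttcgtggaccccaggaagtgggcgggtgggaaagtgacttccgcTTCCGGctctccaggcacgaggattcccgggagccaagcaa
Nop2: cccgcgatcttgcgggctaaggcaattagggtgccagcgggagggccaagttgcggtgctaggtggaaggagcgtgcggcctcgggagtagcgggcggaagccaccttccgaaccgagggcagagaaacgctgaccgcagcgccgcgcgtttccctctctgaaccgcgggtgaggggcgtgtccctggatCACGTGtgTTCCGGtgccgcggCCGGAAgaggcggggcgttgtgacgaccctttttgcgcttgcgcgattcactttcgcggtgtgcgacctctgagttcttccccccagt
Mdn1: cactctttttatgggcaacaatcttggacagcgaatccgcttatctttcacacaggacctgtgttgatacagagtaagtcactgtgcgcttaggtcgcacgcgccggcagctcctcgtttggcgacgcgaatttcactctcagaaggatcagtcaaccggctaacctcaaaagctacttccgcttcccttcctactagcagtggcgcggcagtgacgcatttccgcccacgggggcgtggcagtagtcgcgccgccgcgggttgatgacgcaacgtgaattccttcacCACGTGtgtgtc
CCGGAA, the core of sites that ETS-type factors can bind, stood in 22 of the 33 members with a listed promoter (66.7%), against 32.9% of 8610 tested genes with one. CACGTG, the E-box that MYC-type factors can bind, stood in 6 of 33 members (18.2%: Mdn1, Nle1, Nmd3, Nop2, Sdad1 and Xrn2), against 12.1% of the same genes. Both motifs were chosen after the sequences were seen, they do not overlap each other, and a match is a description of letters, not of binding.

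Values are the authors' normalised read counts, that is whole reads times 1 factor per library, with 13683674 to 27347878 reads per library in listed genes. The members rested on 121 to 14463 reads each, far over the 3 reads that a value of 0 allows (0.0989 to 0.257 normalised read counts). Ddx27 itself had 52.6, 41.0 and 31.3 normalised read counts in knockout polysomal RNA and 39.7 and 45.0 in knockout total RNA, against 213, 139 and 215 in wild-type polysomal RNA and 150, 144 and 139 in wild-type total RNA. Knockout over wild type, its log2 difference was -2.08 ± 0.22 in polysomal RNA (limma, adjusted p = 0.000194) and -1.63 ± 0.24 in total RNA (adjusted p = 0.00186), and reads still reached the gene in the knockout. Reads that collect at rRNA-like features (Gm26924, mmu-mir-6236 and Lars2, chosen after their values were seen) took 22.9%, 32.4% and 0.381% of knockout polysomal libraries 1 to 3 and 0.0896% and 0.134% of knockout total libraries, against 5.85%, 14.4% and 0.663% of wild-type polysomal and at most 0.0686% of wild-type total libraries. Of the 6 myoblast markers, 5 were listed for the knockout, summing to 461 to 539 in its polysomal and 1032 to 1205 in its total libraries, against all 6 in the wild type, summing to 888 to 1042 and 2921 to 4021. The myoblast regulator Myod1 was at 0, 0 and 0.0861 normalised read counts in knockout polysomal RNA and 0.363 and 1.13 in knockout total RNA, against 69.7 to 95.5 in wild-type polysomal and 137 to 177 in wild-type total RNA. On this marker the knockout cells went against the label myoblast. Des, Cdh15 and Itga7 were also lower in the knockout in both fractions, and Pax7 was listed only for the wild type. Myf5 went the other way in total RNA, with 107 and 123 in knockout against 58.0, 70.5 and 60.3 in wild-type libraries. In polysomal RNA Myf5 had 71.4, 104 and 115 in knockout against 56.3, 88.3 and 71.9 in wild-type libraries. The 6 genes of terminal muscle differentiation summed to 6.93 to 10.5 in knockout polysomal and 130 to 146 in knockout total libraries, against 16.0 to 27.8 in wild-type polysomal and 280 to 741 in wild-type total libraries. Of 5 fibroblast markers, Dcn and Pdgfra were listed in both tables and Cd248 in the wild type, summing to 7.28 to 11.2 in knockout polysomal and 15.3 to 19.9 in knockout total libraries, against 5.16 to 12.0 in wild-type polysomal and 37.7 to 58.5 in wild-type total libraries. Of 3 leukocyte markers, Cd14 and Cd68 were listed and Ptprc was not, with sums of 15.6 to 16.6, 20.6 to 29.6, 13.2 to 25.3 and 12.3 to 17.1 in the same order of groups. Of 4 adipocyte markers, Pparg and Lpl were listed and Adipoq and Fabp4 were not, with sums of 32.7 to 43.9, 51.3 to 52.6, 30.5 to 46.7 and 53.0 to 63.8. Malat1, an RNA retained in the nucleus, had 470, 917 and 77.9 normalised read counts in knockout polysomal and 340 and 326 in knockout total RNA, against 281, 133 and 100.3 in wild-type polysomal and 178, 155 and 117 in wild-type total RNA. Neat1, another nuclear RNA, had 168, 46.6 and 42.7 in knockout polysomal and 222 and 171 in knockout total RNA, against 45.2, 54.1 and 18.5 in wild-type polysomal and 106, 92.6 and 73.3 in wild-type total RNA. Whether these differences between the cells and fractions play a part in the results by genotype was not tested.

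In wild-type cells the messages of 10 of the 36 assembly factors were higher in polysomal than in total RNA and those of 2 were lower (limma, adjusted p under 0.05), while 8.89% of 12380 tested genes were higher and 13.8% lower. The higher ones were Ebna1bp2, Nop16, Nip7, Brix1, Npm1, Gnl3, Nle1, Rrp8, Wdr74 and Noc2l, and the lower ones were Mdn1 and Ddx24. The median log2 fold change was 0.04 over the members and -0.02 over all tested genes, so the members spread out in both directions, over a range of -1.73 to 1.69, and did not shift as 1 block. There were 16 members below 0 (51.1% of all genes), and 18 had an unadjusted p under 0.05 (39.2% of all genes in either direction), 14 of them higher. All 3 polysomal libraries lay above all 3 total libraries for 14 members (23.2% of all genes) and below them for 7 members (27.7% of all genes), and the libraries of the other 15 overlapped. Each ± below is a standard error of the fit.

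The 2 largest enrichments were found among the factors that bind early and middle precursor particles. Ebna1bp2, whose yeast counterpart Ebp2 is an early large-subunit factor, had 266, 301 and 193 normalised read counts in wild-type polysomal RNA, against 87.6, 88.9 and 84.5 in total RNA (log2 fold change 1.51 ± 0.20, adjusted p = 0.00416). Nop16, a nucleolar protein of early particles, had 149, 255 and 135 in polysomal RNA, against 56.2, 57.1 and 46.0 in total RNA (1.69 ± 0.26, adjusted p = 0.00661). For both genes the lowest polysomal library was more than any total library by a wide margin. Nip7, a partner of pre-rRNA processing, had 113, 139 and 102 in polysomal RNA and 58.0, 54.9 and 45.2 in total RNA (1.14 ± 0.19, adjusted p = 0.00821). Brix1, a Brix-domain protein that binds precursor rRNA, had 160, 134 and 170 in polysomal RNA and 74.6, 72.8 and 74.1 in total RNA (1.05 ± 0.16, adjusted p = 0.0066). Noc2l, the counterpart of yeast Noc2, had 231, 271 and 284 in polysomal RNA and 174, 167 and 187 in total RNA (0.57 ± 0.16, adjusted p = 0.0444). These 3 genes had no overlap between fractions, and the total RNA libraries lay close together. The gene Rrs1, whose yeast counterpart helps to bring the 5S particle in, had 107, 79.0 and 95.3 in polysomal RNA and 64.3, 64.6 and 53.6 in total RNA and missed the threshold (0.61 ± 0.19, adjusted p = 0.0519).

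Outside the binding factors, 5 further members were higher in wild-type polysomal RNA. Npm1, nucleophosmin, an abundant nucleolar chaperone, had 600, 255 and 521 normalised read counts in polysomal RNA and 171, 183 and 143 in total RNA (1.38 ± 0.32, adjusted p = 0.0237); near-identical processed copies of this gene exist, so its level is uncertain. Gnl3, the GTPase nucleostemin, had 221, 139 and 210 in polysomal RNA and 88.5, 90.6 and 96.5 in total RNA (1.01 ± 0.21, adjusted p = 0.0169). In both cases polysomal library 2 was the lowest of its group and still lay above all total libraries. Nle1, an adaptor through which midasin acts on the particle, had 50.9, 88.9 and 54.2 in polysomal RNA and 31.3, 34.2 and 33.8 in total RNA (0.90 ± 0.24, adjusted p = 0.0354). Wdr74, a partner of the ATPase Nvl, had 54.9, 54.1 and 49.9 in polysomal RNA and 35.8, 32.3 and 29.0 in total RNA (0.70 ± 0.17, adjusted p = 0.0261). Rrp8, which methylates an adenine of 28S rRNA, had 76.5, 104 and 100 in polysomal RNA and 53.4, 54.1 and 53.3 in total RNA (0.78 ± 0.18, adjusted p = 0.0222). These 3 genes again had separate fractions, with the lowest polysomal value above the highest total value. Annotated genes overlap Ebna1bp2, Noc2l, Gnl3 and Rrp8 (Ilk in the case of Rrp8), and the sources used here do not give whether counting used strand, so some of their reads may belong to a neighbour.

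Mdn1 and Ddx24 went the other way. Mdn1, midasin, the very large AAA-type ATPase that remodels the particle, had 36.6, 13.7 and 31.6 normalised read counts in wild-type polysomal RNA, against 87.8, 92.5 and 78.9 in total RNA (log2 fold change -1.73 ± 0.35, adjusted p = 0.0144). Ddx24, a DEAD-box helicase, had 108, 96.8 and 120 in polysomal RNA, against 162, 155 and 176 in total RNA (-0.60 ± 0.16, adjusted p = 0.0383). No polysomal library of either gene reached the lowest total library. The polysomal libraries also lay below total for Xrn2, the nuclear 5′ to 3′ exonuclease (-0.88 ± 0.29, adjusted p = 0.0617), for the RNA-binding protein Rbm28, for the scaffold protein Urb1, for Ddx54 and for the exosome's nuclease Exosc10, none of which passed. The 10 higher calls and 2 lower calls became 17 and 5 without wild-type polysomal library 2, and 3, 2 and 1 higher with none lower without wild-type total library 1, 2 or 3, each of which leaves fewer libraries for the fit. Without wild-type polysomal library 1 there were 7 higher and 1 lower calls (Gnl3, Npm1, Wdr74 and Ddx24 were lost), and without library 3 there were 8 and 4 (Noc2l and Npm1 were lost). Ebna1bp2 alone was called in every one of these fits. Among all genes, 2765 of 12222 were higher and 3012 lower without wild-type polysomal library 2. Without wild-type polysomal library 1 there were 594 and 1264 of 12240, and without library 3 there were 1331 and 1815 of 12272. Without wild-type total library 1, 2 or 3 there were 114, 144 and 83 higher and 420, 437 and 378 lower genes.

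In knockout cells no assembly factor was called in either direction between polysomal and total RNA (limma, adjusted p under 0.05). Few genes were called at all, with 0.911% of 12070 tested genes higher and 1.85% lower. The absence of calls among 36 members therefore lay near the shares of all genes. At an unadjusted p under 0.05 there were 11 members, all lower in polysomal RNA, and 10.7% of all genes were lower at that level. The members' log2 fold changes had a median of -0.39 (0.04 over all tested genes), and 32 of 36 were below 0, against 47.3% of all tested genes. Every knockout polysomal library lay below both total libraries for 18 members (18.3% of all genes) and above both for 2 members, Rrp1b and Rrp8 (22.3% of all genes). edgeR's quasi-likelihood test on the recovered reads also called no member, DESeq2 called 4 lower (Ddx18, Ddx24, Ddx56 and Nop2; 751 of 12070 genes), and without knockout polysomal library 1 limma called 2 lower (Ddx18 and Nop2; 760 of 11848 genes). In the authors' deposited table, 1 member was past an FDR of 0.05 in the knockout, Ddx18 at a log2 fold change of -1.04 with an FDR of 0.0331, against 10 higher and 2 lower members in the wild type. The wild-type counts in the authors' deposited table equal those of limma but not the genes: there Nmd3 (FDR 0.0316) and Xrn2 (FDR 0.039) passed, and Noc2l (FDR 0.0986) and Ddx24 (FDR 0.0803) did not.

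The 6 members with the smallest p in the knockout were 4 DEAD-box helicases, a methyltransferase and a component of the spacer-cutting enzyme. Ddx24 had 85.0, 87.9 and 87.8 normalised read counts in knockout polysomal RNA, against 151 and 141 in total RNA (log2 fold change -0.74 ± 0.21, adjusted p = 0.0969). Nop2, which methylates a cytosine of 28S rRNA, had 101, 117 and 82.0 in polysomal RNA, against 170 and 181 in total RNA (-0.82 ± 0.24, adjusted p = 0.0998). Ddx18 had 17.5, 24.3 and 15.2 in polysomal RNA, against 32.0 and 45.8 in total RNA (-1.0 ± 0.29, adjusted p = 0.0999). In all 3 genes the polysomal libraries stood clear below the total libraries, and none passed the threshold. Las1l, a subunit of the endonuclease complex that cuts the second internal spacer, had 30.0, 46.2 and 28.8 in polysomal RNA and 66.6 and 56.1 in total RNA (-0.82 ± 0.27, adjusted p = 0.134). Ddx56 had 81.3, 79.0 and 80.7 in polysomal RNA and 113 and 144 in total RNA (-0.66 ± 0.22, adjusted p = 0.136). Ddx54 had 84.0, 80.6 and 84.8 in polysomal RNA and 125 and 124 in total RNA (-0.57 ± 0.21, adjusted p = 0.157). The 3 polysomal values of Ddx54 and of Ddx56 lay close together, while those of Nop2, Ddx18 and Las1l were highest in library 2. In wild-type cells Ddx54 had 117, 134 and 133 in polysomal RNA and 151, 149 and 155 in total RNA, Ddx18 had 35.1, 18.2 and 38.9 against 35.2, 33.0 and 38.5, and Las1l had 63.9, 29.7 and 50.1 against 63.5, 59.2 and 54.7, with no call for any of them. Nop2 had 194, 256 and 216 in wild-type polysomal RNA and 203, 197 and 199 in wild-type total RNA (0.14 ± 0.17, adjusted p = 0.547), so its fractions overlapped.

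**Figure D1:**
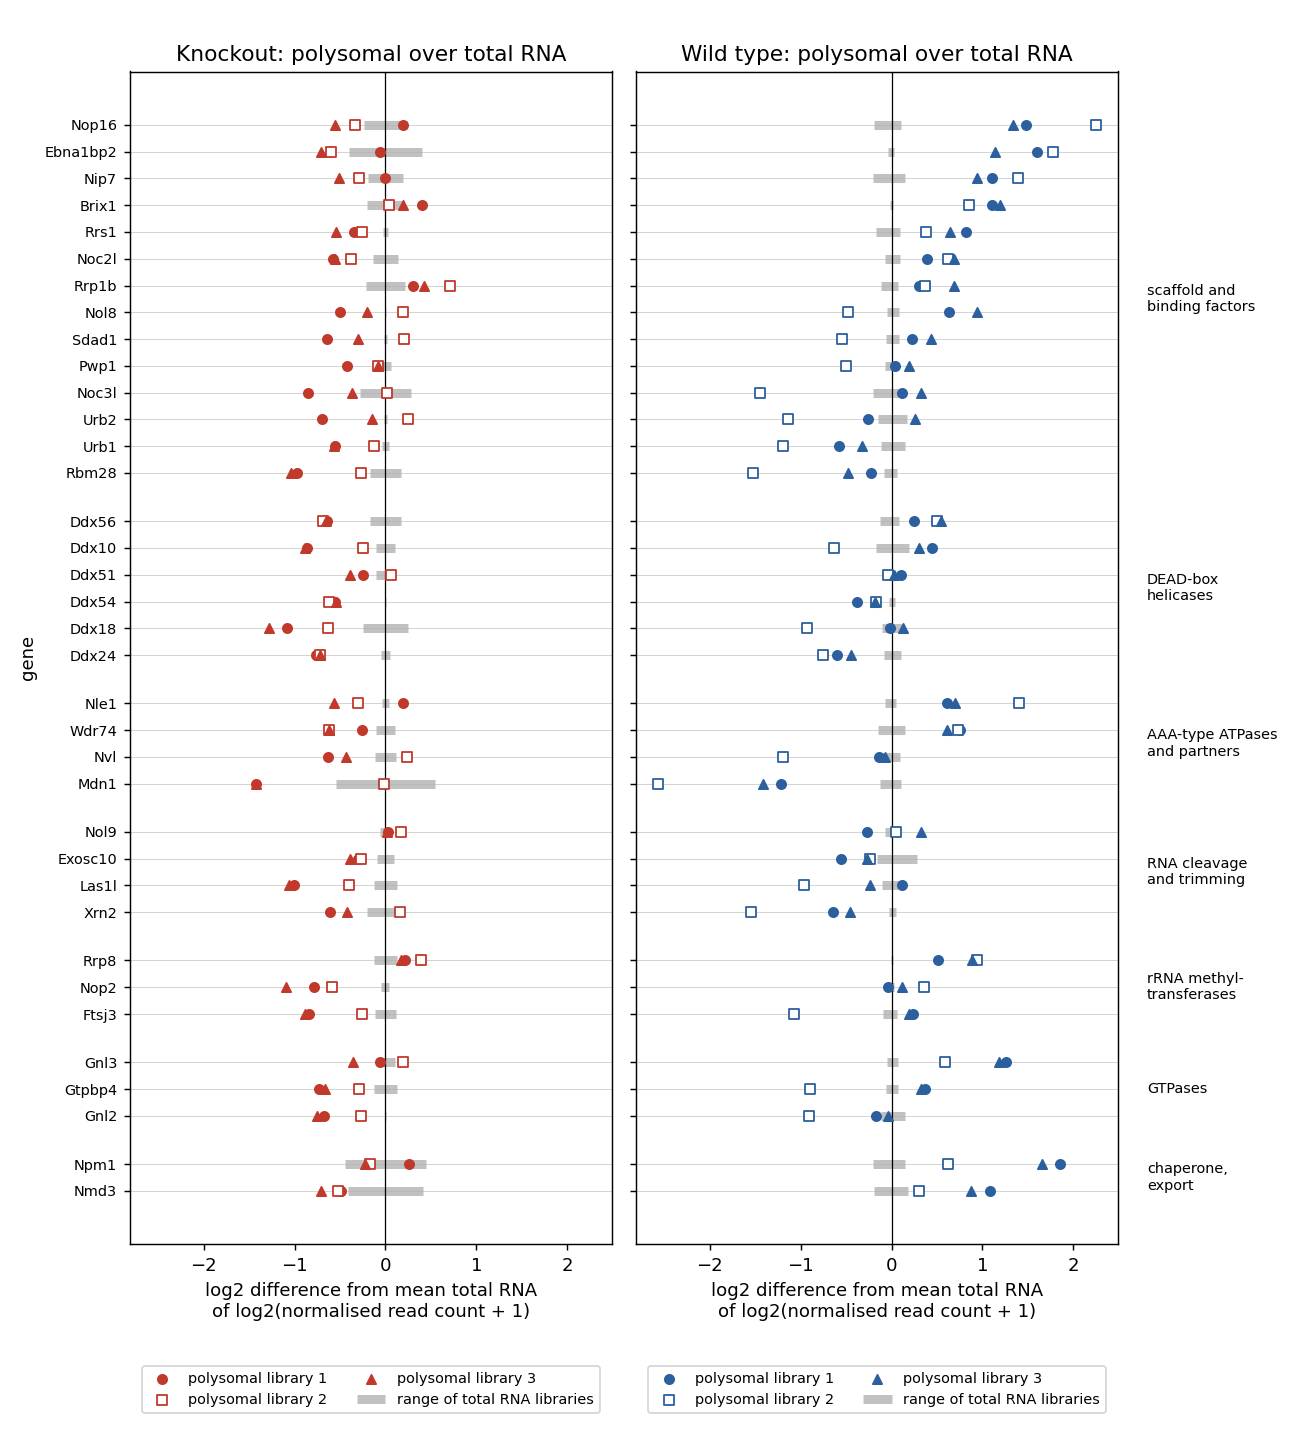
Polysomal value of each of the 36 members in each polysomal library relative to the mean of the total RNA libraries of its genotype (log2), with knockout on the left and wild type on the right and members grouped by role; grey bars give the range of the total RNA libraries. Most knockout points lie left of 0 (library medians of -0.56, -0.26 and -0.55), and the wild-type points spread to both sides (0.23, -0.20 and 0.32).

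Taken library by library, the median member lay at -0.56, -0.26 and -0.55 (log2, relative to mean total RNA) in knockout polysomal libraries 1 to 3, with 7, 12 and 4 of 36 members above 0. In wild-type polysomal libraries 1 to 3 the median was 0.23, -0.20 and 0.32, with 23, 16 and 26 members above 0. Wild-type polysomal library 2 thus stood apart from the other 2 of its group, and the knockout libraries were all below 0. The 36 members together summed to 2457, 2613 and 2163 normalised read counts in knockout polysomal RNA and 2897 and 3323 in knockout total RNA, against 4019, 3344 and 4077 in wild-type polysomal RNA and 3016, 2967 and 2939 in wild-type total RNA. The lowest wild-type polysomal sum was higher than every wild-type total sum, and the highest knockout polysomal sum was lower than both knockout total sums. As a share of all reads in listed genes, the members took 0.219%, 0.223% and 0.255% in knockout polysomal RNA and 0.321% and 0.335% in knockout total RNA, against 0.421%, 0.275% and 0.448% in wild-type polysomal RNA and 0.313%, 0.306% and 0.292% in wild-type total RNA. On this scale the knockout fractions kept their order, and wild-type polysomal library 2 lay below the wild-type total libraries. The reads counted here include the rRNA-like ones, which took 22.9%, 32.4% and 0.381% of knockout polysomal libraries 1 to 3. They took 5.85%, 14.4% and 0.663% of wild-type polysomal libraries 1 to 3. The part of the rRNA-like reads in these orders was not tested.

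The difference between genotypes in polysomal enrichment was then tested directly, as knockout minus wild type in 1 fit over all 11 libraries on a common scale. No member passed (limma, adjusted p under 0.05), in a comparison in which 0.201% of 12460 tested genes were higher and 0.0482% lower. The median difference over the members was -0.52, against 0.05 over all tested genes, and 31 of 36 members were negative, against 47.1% of all genes. At an unadjusted p under 0.05 there were 13 members, all negative, and at that level 20.7% of all genes differed in either direction and 9.71% were negative. edgeR called no member (9 of 12460 genes lower) and DESeq2 called 12 lower (462 of 12460 genes). limma called 10 members lower without wild-type polysomal library 2 (140 of 12419 genes), 3 without knockout polysomal library 1 (26 of 12403 genes) and 3 without knockout total library 1 (94 of 12408 genes). This comparison uses the same libraries as the within-genotype comparisons and is not separate support for them.

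The 6 members with the smallest p for this difference were Ebna1bp2 (-2.01 ± 0.40, adjusted p = 0.0683), Wdr74 (-1.24 ± 0.27), Nip7 (-1.45 ± 0.32) and Nop16 (-1.96 ± 0.43, adjusted p = 0.0716 for all 3), Ddx56 (-1.13 ± 0.25, adjusted p = 0.0739) and Noc2l (-1.11 ± 0.25, adjusted p = 0.0774). All but Ddx56 were among the messages enriched in wild-type polysomal RNA. In knockout cells, Ebna1bp2 had 157, 107 and 99.3 normalised read counts in polysomal RNA and 124 and 216 in total RNA. Nop16 had 115, 79.6 and 67.8 in knockout polysomal RNA and 85.1 and 118 in knockout total RNA. Nip7 had 93.9, 76.9 and 65.9 in knockout polysomal RNA and 82.3 and 108 in knockout total RNA. For these 3 genes the 2 knockout fractions overlapped, where the wild-type fractions stood apart. Noc2l had 131, 151 and 134 in knockout polysomal RNA and 179 and 216 in knockout total RNA. Wdr74 had 36.5, 28.1 and 28.0 in knockout polysomal RNA and 40.7 and 46.9 in knockout total RNA. Ddx56 had 124, 148 and 152 in wild-type polysomal RNA and 107, 95.5 and 111 in wild-type total RNA. For these 3 the order of the fractions was the opposite in the genotypes, with knockout polysomal libraries all below total and wild-type polysomal libraries all above total.

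That opposite order was found for 5 of 36 members, Noc2l, Rrs1, Nmd3, Wdr74 and Ddx56, against 0.995% of 12460 genes, and the reverse pattern for no member, against 1.74% of genes. Rrs1 had 53.7, 57.1 and 46.6 normalised read counts in knockout polysomal RNA and 70.0 and 67.2 in knockout total RNA. Nmd3, the adaptor that takes the large subunit through the nuclear pore, had 66.2, 64.8 and 56.4 in knockout polysomal RNA and 69.7 and 125 in knockout total RNA, against 121, 69.9 and 104 in wild-type polysomal and 57.0, 64.2 and 49.0 in wild-type total RNA. The 2 knockout total libraries of Nmd3 differed more from each other than the means of the fractions did. Other members stayed on 1 side in the 2 genotypes: polysomal libraries lay below total for Rbm28, Urb1, Ddx24, Ddx54 and Exosc10, and above total for Rrp8 and for Rrp1b, a nucleolar partner of protein phosphatase and pre-ribosomes.

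**Figure D2:**
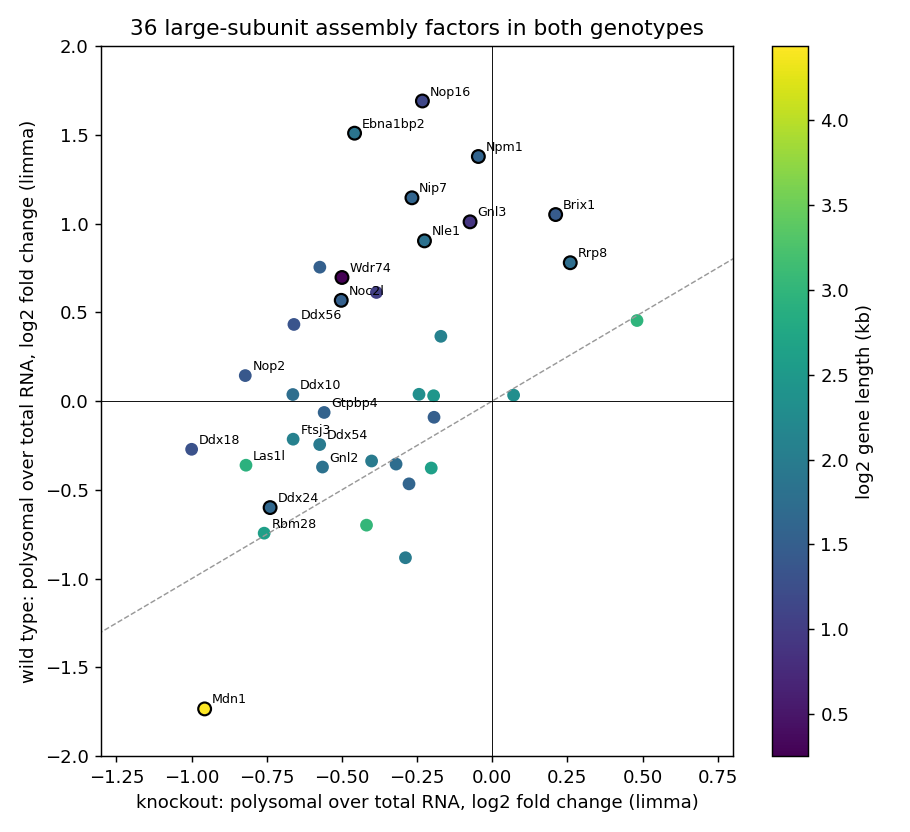
Polysomal enrichment (log2 fold change over total RNA) of the 36 members in knockout cells (x axis) and in wild-type cells (y axis), coloured by gene length, with a black outline for members called in the wild type. The called members sit above 0 on the wild-type axis except Mdn1 (-1.73) and Ddx24 (-0.60), and 32 of 36 members lie below 0 on the knockout axis.

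The remaining called members of the wild type had these knockout values. Brix1 had 115, 89.2 and 99.0 normalised read counts in knockout polysomal RNA and 75.0 and 100 in knockout total RNA. Gnl3 had 110, 131 and 89.2 in knockout polysomal RNA and 106 and 123 in knockout total RNA. Npm1 had 376, 278 and 267 in knockout polysomal RNA and 229 and 428 in knockout total RNA. In all 3 the fractions overlapped. Rrp8 had 63.7, 71.6 and 61.6 in knockout polysomal RNA and 49.8 and 59.8 in knockout total RNA, which kept the wild-type order at a smaller size (0.26 ± 0.22, adjusted p = 0.529; difference between genotypes -0.56 ± 0.27, adjusted p = 0.263). Nle1 had 45.3, 31.7 and 26.4 in knockout polysomal RNA and 40.6 and 38.4 in knockout total RNA. Mdn1 had 14.7, 40.6 and 14.7 in knockout polysomal RNA and 60.5 and 28.0 in knockout total RNA, so that its 2 total libraries enclosed the highest polysomal one. Mdn1 had the highest difference of all members (0.74 ± 0.65, adjusted p = 0.504), with a standard error close to its size.

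By role, the difference between genotypes was negative for every DEAD-box helicase (Ddx10, Ddx18, Ddx24, Ddx51, Ddx54 and Ddx56, median -0.55), every methyltransferase (Nop2, Rrp8 and Ftsj3, a ribose methyltransferase, median -0.56) and every GTPase (Gnl2, Gnl3 and Gtpbp4, median -0.54). It was negative for 12 of the 14 binding and scaffold factors, with a median of -0.45. The exceptions there were Urb1 (0.24 ± 0.34) and Urb2 (0.13 ± 0.47), which are scaffold proteins of early particles. Of the negative ones in that group, Ebna1bp2, Nop16, Nip7 and Noc2l are given above, and Rrs1 was at -1.04 and Brix1 at -0.88. The rest were Noc3l at -0.10, Rrp1b at -0.01, Pwp1 at -0.14, Rbm28 at -0.06, Sdad1 at -0.32 and Nol8 at -0.57. Among the AAA-type ATPases and partners, Nle1 and Wdr74 were negative and Mdn1 and Nvl (0.15 ± 0.44) were positive. The chaperone Npm1 (-1.46 ± 0.47) and the export adaptor Nmd3 (-1.37 ± 0.36) were negative. Their median of -1.42 was the lowest of the role groups. The cutting and trimming enzymes went both ways, with Las1l at -0.50, Xrn2 at 0.55, and Nol9, the kinase that partners Las1l, and Exosc10 at -0.00 and -0.01. No member of any of these role groups passed the test.

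Levels between genotypes were compared in each RNA fraction on the common scale. In polysomal RNA, 7 of the 36 members were lower in knockout than in wild-type cells and none was higher (limma, adjusted p under 0.05), while 3.5% of 12460 tested genes were lower and 4.82% higher. The 7 were Nop2, Noc2l, Rrs1, Ddx56, Wdr74, Ebna1bp2 and Ddx54. The log2 difference was negative for 35 of 36 members, against 50.1% of all genes, with a median of -0.44 (-0.00 over all tested genes), and Urb2 was the exception at 0.11 ± 0.32. All knockout polysomal libraries lay below all wild-type ones for 16 members (11% of all genes) and above them for none (12.6% of all genes).

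Nop2 had 104, 120 and 82.2 common-scale normalised read counts in knockout polysomal RNA, against 181, 261 and 203 in wild-type polysomal RNA (log2 difference -1.07 ± 0.19, adjusted p = 0.00587). Noc2l had 135, 156 and 134 in knockout polysomal RNA, against 215, 276 and 267 in wild-type polysomal RNA (-0.83 ± 0.17, adjusted p = 0.0112). Rrs1 had 55.1, 58.9 and 46.7 in knockout polysomal RNA, against 100.4, 80.5 and 89.6 in wild-type polysomal RNA (-0.74 ± 0.17, adjusted p = 0.0201). In none of the 3 did a knockout library reach the lowest wild-type library. Ddx56 had 83.4, 81.5 and 81.0 in knockout polysomal RNA, against 116, 151 and 143 in wild-type polysomal RNA (-0.72 ± 0.17, adjusted p = 0.0234). Wdr74 had 37.4, 29.0 and 28.1 in knockout polysomal RNA, against 51.3, 55.1 and 46.9 in wild-type polysomal RNA (-0.69 ± 0.18, adjusted p = 0.0347). Ebna1bp2 had 161, 111 and 99.6 in knockout polysomal RNA, against 249, 307 and 182 in wild-type polysomal RNA (-0.98 ± 0.26, adjusted p = 0.0425). These 3 were also without overlap, and Ebna1bp2 came closest to one. Ddx54 had 86.1, 83.2 and 85.1 in knockout polysomal RNA, against 109, 137 and 125 in wild-type polysomal RNA (-0.53 ± 0.15, adjusted p = 0.0496), the smallest of the 7 differences. Leaving out single libraries gave 1 call (Nop2, without knockout polysomal library 3) to 12 calls (without wild-type polysomal library 2), and the call of Nop2 was kept in every such fit. Noc2l lost its call only without knockout polysomal library 3, and Rrs1 also without wild-type polysomal library 1 or 3. Ddx56, Wdr74, Ebna1bp2 and Ddx54 each lost theirs without several libraries. Lower genes in all numbered 163 of 12415 without knockout polysomal library 3 and 746 of 12419 without wild-type polysomal library 2.

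In total RNA, 2 members were higher in knockout than in wild-type cells and none was lower, while 4.71% of 12460 tested genes were higher and 5.79% lower. Nip7 had 86.3 and 113 common-scale normalised read counts in knockout total RNA, against 55.7, 52.7 and 43.8 in wild-type total RNA (log2 difference 0.95 ± 0.24, adjusted p = 0.0291). Ebna1bp2 had 130 and 227 in knockout total RNA, against 84.1, 85.4 and 81.9 in wild-type total RNA (1.02 ± 0.30, adjusted p = 0.0487). Both genes were higher in each knockout library than in any wild-type library, and the 2 knockout libraries of Ebna1bp2 lay far apart. The members next in order of p were Nop16 (1.03 ± 0.32, adjusted p = 0.0636), Nmd3 (0.84 ± 0.27, adjusted p = 0.0707), Npm1 (1.04 ± 0.35, adjusted p = 0.076) and Wdr74 (0.55 ± 0.20, adjusted p = 0.097). The median over the members was 0.12, against -0.01 over all genes, with 17 of 36 members negative (50.8% of all genes) and 8 at an unadjusted p under 0.05 (29.4% of all genes), so the members as a list did not stand to 1 side in total RNA. The 2 calls were lost without knockout total library 2 and without any 1 of the wild-type total libraries, and that of Ebna1bp2 also without knockout polysomal library 2 or 3 or wild-type polysomal library 1.

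**Figure D3:**
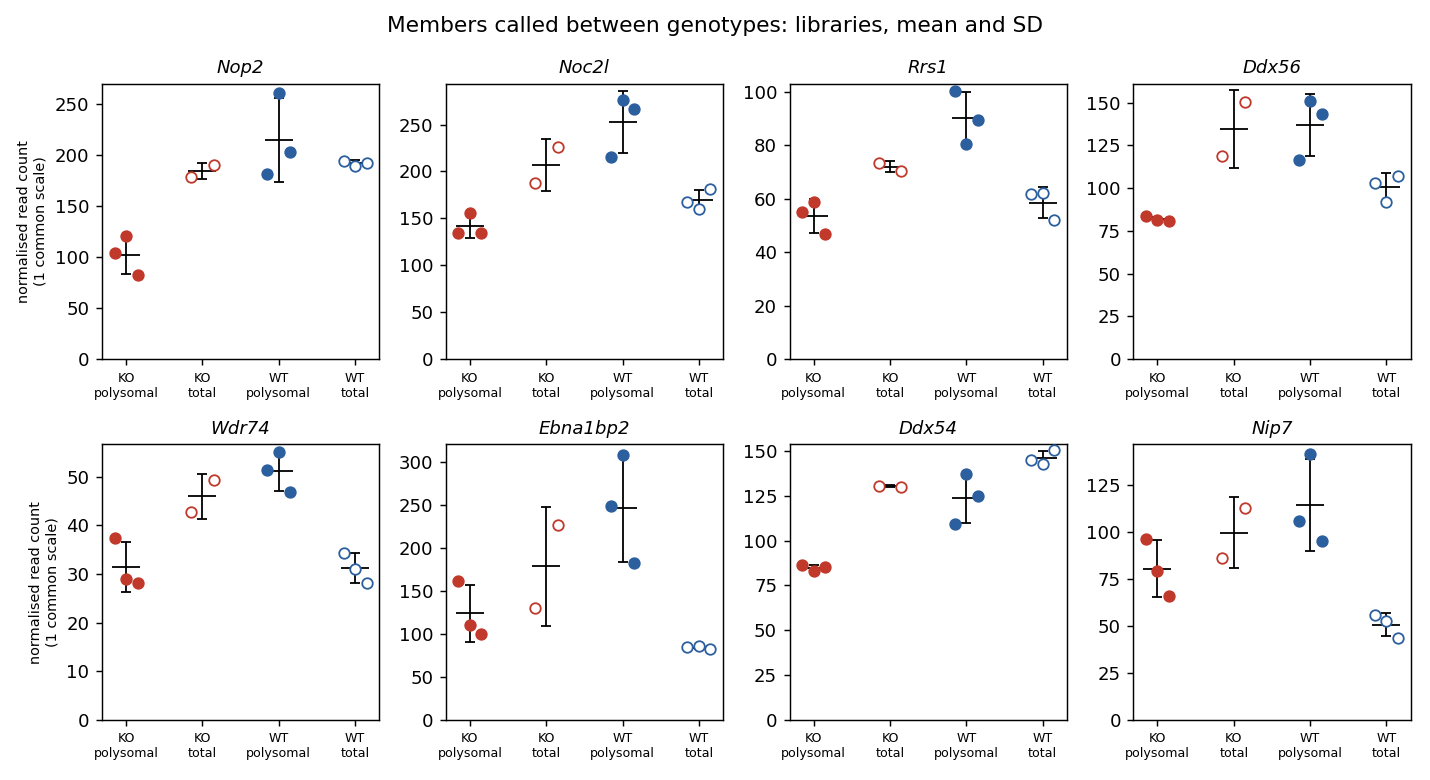
Common-scale normalised read counts of 8 members in the 4 groups, with each library as a point and the mean and SD (n = 3, 2, 3 and 3 libraries) for knockout polysomal, knockout total, wild-type polysomal and wild-type total RNA. For Nop2, Noc2l, Rrs1, Ddx56, Wdr74, Ebna1bp2 and Ddx54 every knockout polysomal point lies below every wild-type polysomal point, and for Nip7 and Ebna1bp2 the knockout total points lie above the wild-type total points.

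The members differ in length, which is 1192 bases for Wdr74, 21621 bases for Mdn1 and 3351.5 bases for the median member, as the authors' tables give it. Over the 36 members polysomal enrichment (log2) had a Pearson r with log2 length of -0.07 in the knockout and -0.60 in the wild type. For the difference between genotypes in enrichment it was 0.64. Spearman's rho was 0.017 for the knockout, -0.53 for the wild type and 0.66 for the difference. Knockout over wild type, the log2 difference in level had an r with log2 length of -0.60 in total RNA and 0.44 in polysomal RNA. These correlations are across genes of the same libraries, are given with no test and share any length effect of a library. In single polysomal libraries the r was -0.35, 0.38 and -0.11 for knockout libraries 1 to 3 and -0.55, -0.56 and -0.58 for wild-type libraries 1 to 3. Over all genes the slope per doubling of length was -0.16, 0.17 and 0.11 in the knockout polysomal libraries and 0.11 and -0.11 in the knockout total libraries, against -0.23, -0.53 and -0.14 in the wild-type polysomal libraries and -0.01 to 0.01 in the wild-type total libraries. The steepest slope belonged to wild-type polysomal library 2, which also had the highest rRNA-like share of the wild-type libraries (14.4%). Knockout polysomal libraries 1 and 2 had higher shares (22.9% and 32.4%) and slopes of -0.16 and 0.17. A link between share and slope was not tested. With the trend on length removed from every library, 3 members passed for the difference between genotypes (Ebna1bp2, Nip7 and Nop16), 4 passed in the knockout (Ddx18, Ddx24, Las1l and Nop2, all lower), and in the wild type Rrp1b passed (0.79, adjusted p = 0.0141) while Gnl3 (0.72, adjusted p = 0.09), Noc2l (0.46, adjusted p = 0.0662) and Wdr74 (0.21, adjusted p = 0.467) no longer did. With the trend removed, 42 of 12460 genes were lower for the difference between genotypes and 778 of 12070 in the knockout. Of 12380 wild-type genes 1070 were higher and 1734 lower. Knockout over wild type, 3 members were then higher in total RNA (674 of 12460 genes) and 10 lower in polysomal RNA (669 of 12460 genes). The part of length in the genotype difference was not tested beyond these fits.

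**Figure D4:**
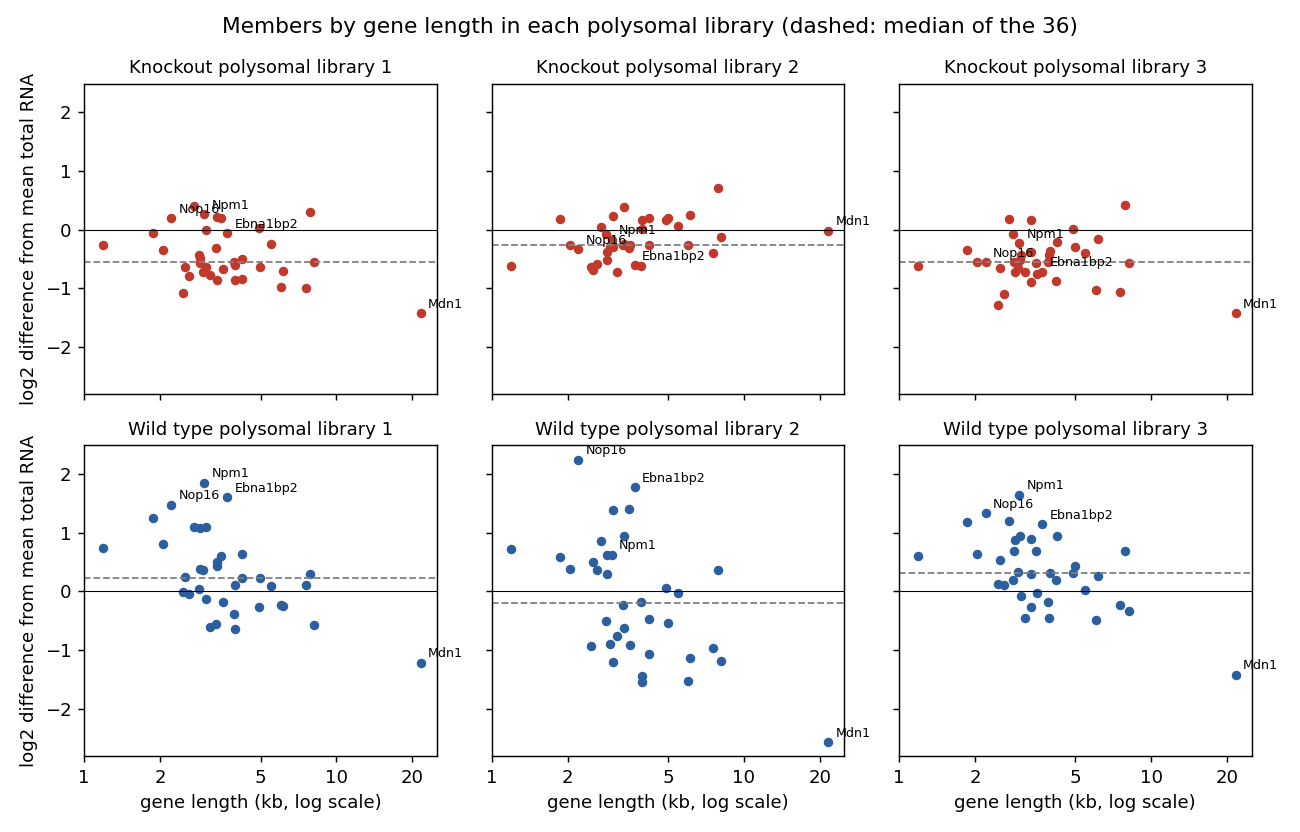
Log2 value of each member relative to mean total RNA of its genotype (y axis) against gene length on a log axis (x axis), with 1 panel for each polysomal library, knockout above wild type, and the library's median as a dashed line. Values fall with length in the 3 wild-type libraries (Pearson r of -0.55 to -0.58), and the knockout libraries show r of -0.35, 0.38 and -0.11.

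A second list of 53 other large-subunit maturation factors, Ddx27 left out, was counted in the same fits. In the wild type 22 of them were higher in polysomal RNA and 1 was lower, Eftud1 (-0.82), a GTPase of late cytoplasmic steps, with a median of 0.74 (8.89% of all genes were higher and 13.8% lower). The 6 with the smallest p were Rpf1 (1.28), Rrp15 (1.30), Rpl7l1 (1.01), Mki67ip (1.09), Mrto4 (1.08) and Tma16 (1.27). Leaving out wild-type total library 1, 2 or 3 moved this count, with Ddx27 counted in, to 2, 3 and 3 higher of 54. Without wild-type polysomal library 2 it was 38. In the same fits 114, 144, 83 and 2765 of all genes were higher. In the knockout none of the 53 was called, with a median of -0.22 and 37 below 0 (47.3% of all genes). The difference between genotypes had a median of -0.78, with 50 of 53 negative (47.1% of all genes) and none called. In polysomal RNA 5 were lower in knockout than in wild-type cells, Mrto4 (-0.97), the exosome subunit Exosc8 (-0.92), Rpf1 (-0.81), Tma16 (-0.75) and Wdr18 (-0.72), a partner of Las1l, and none was higher (3.5% of all genes were lower and 4.82% higher). With Ddx27 counted in, the 6 lower calls became 1 without knockout polysomal library 2 or 3, 2 without wild-type polysomal library 3, 3 without wild-type total library 1 or 2 and 13 without wild-type polysomal library 2. In total RNA, Wdr12 (0.85), a subunit of the PeBoW complex, and Mki67ip (0.65) were higher in knockout cells and none was lower (4.71% of all genes were higher and 5.79% lower). Neither was called without knockout polysomal library 3, knockout total library 2 or any 1 of the wild-type total libraries, and there were 14 higher calls without wild-type polysomal library 2 and 5 without knockout total library 1.

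The 3 polysomal libraries with the highest rRNA-like shares, knockout 1 and 2 and wild-type 2, were left out together in fits added after the data were seen. Without them the median difference between genotypes over the 36 members was -1.03 and 19 members were called lower, where 552 of 12359 genes were lower, against 6 of 12460 with all libraries. The count of members lower in knockout polysomal RNA was then 18, where 743 of 12359 genes were lower, against 436 of 12460 with all libraries. In it Nop2, Noc2l, Rrs1, Wdr74 and Ebna1bp2 were included and Ddx54 and Ddx56 were not. With knockout polysomal RNA then resting on 1 library, assumed to vary like the other groups, these counts describe the remaining libraries. In the same fit 9 members were higher and 5 lower in knockout total RNA, where 2318 of 12359 genes were higher and 2328 lower, so the members' shares lay near those of all genes.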

How the data were processed

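RNA sequencing values of 11 libraries were analysed, from 12 labelled samples of C2C12 cells. The submitters' processing notes name mm10 as the mouse build and STAR, HTSeq and edgeR as tools, without versions or roles. The authors deposited 1 complete table per genotype (13331 genes for the wild type, 13027 for the knockout, 12590 shared), whose signal values are normalised read counts scaled within that table. The authors' tables also give a log2 fold change, a p-value, an FDR and the length of each gene. All values (100%) were whole reads times 1 factor per library, within a tolerance of 0.001 reads, so the recovered reads could be used with edgeR 4.0.16 (quasi-likelihood) and DESeq2 1.42.0 as alternatives. Polysomal against total RNA, edgeR called 1267 wild-type genes higher and 1607 lower, 81 and 222 knockout genes, 22 and 9 for the difference between genotypes, 672 and 616 in total RNA and 582 and 408 in polysomal RNA between genotypes.

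The tests used limma 3.58.1 with a trend (R 4.3.3) on log2(value + 1), for genes that reached 1 in 3 or more libraries, with Benjamini-Hochberg adjustment over all tested genes and a threshold of 0.05. Fold changes on this scale understate changes of low genes. Within a genotype the deposited values were used, and across genotypes a common median-of-ratios scale over the 12590 shared genes. The test had been planned for CPM and was not changed. Knockout libraries carry the numbers of their table columns, since these match the labels by group only, and the third knockout total sample was not analysed here. Libraries of a group differed by more than counting error (chi-square per degree of freedom of 4.03 or more), so none was counted as a repeat. Read floors reflect counting error alone, because without molecular identifiers reads are not independent molecules. The fits were tested on simulated counts with the same spread for all genes and libraries and no length trend. That test therefore does not cover the length trends and uneven libraries of these data. Members and lists were chosen with earlier results of these data known. All 36 members are named; values in every library are given for those called in any of the 5 comparisons and for the 6 smallest p-values where fewer than 6 were called. All 36 matched RefSeq on GRCm38.p6, and promoters are credited to it. Alternatives changed the pseudocount (0.5 and 0.1), the filter, the scaling, the length trend, the tool, the replicate block and the libraries left in.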

Additional observations from a re-analysis of the deposited data

Results flagged for a closer look

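For 5 members every polysomal library lay above every total library in wild-type cells and below every total library in knockout cells, so the order of the fractions was opposite in the genotypes. Of all 12460 tested genes, 0.995% had this order. None of the 5 passed the test between fractions in the knockout, and of them Noc2l and Wdr74 passed it in the wild type. The difference between genotypes (knockout minus wild type, log2) was -1.11 for Noc2l, -1.04 for Rrs1, -1.37 for Nmd3, -1.24 for Wdr74 and -1.13 for Ddx56. In limma's test of that difference the adjusted p was 0.0774 for Noc2l, 0.0908 for Rrs1, 0.103 for Nmd3, 0.0716 for Wdr74 and 0.0739 for Ddx56, so none passed the threshold.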

How the results depend on the processing

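No member called in the main limma fits changed direction under any alternative run. Gtpbp4, not called there, went from -0.06 to 0.35 in the wild type without wild-type polysomal library 2 (limma, adjusted p = 0.0201). In the wild type, DESeq2 called 4 members lower in polysomal RNA, where it called 2215 of 12380 genes lower. Leaving out single libraries gave 1 to 17 members higher, 0 to 5 lower and medians of -0.10 to 0.27. In those fits 83 to 2765 genes were higher and 378 to 3012 lower. In the knockout, DESeq2 and removal of the length trend each called 4 members lower, where 751 and 778 of 12070 genes were lower. Without the libraries rich in rRNA-like reads the members' median was -0.55. Leaving out single polysomal libraries gave 0 to 2 members lower and medians of -0.49 to -0.32, where 20 to 760 genes were lower. For the difference between genotypes, DESeq2 called 12 lower, removal of the length trend 3 and the fit without rRNA-rich libraries 19 (median -1.03), while single libraries left out gave 0 to 10 and medians of -0.81 to -0.36. Knockout over wild type in total RNA, DESeq2 called 6 higher, a pseudocount of 0.1 and the values as deposited 1 each, and the fit without rRNA-rich libraries 9 higher and 5 lower. Single libraries left out gave 0 to 5 members higher, 0 to 1 lower and medians of 0.0124 to 0.13. Of all 12460 genes in total RNA, DESeq2 called 1256 higher and 1208 lower, and a pseudocount of 0.1 gave 519 and 689. Single-library fits that kept both knockout total libraries called 167 to 1475 genes higher and 311 to 1501 lower. In polysomal RNA, DESeq2 called 12 lower and the fit without rRNA-rich libraries 18 (median -0.73), while single libraries left out gave 1 to 12 lower and medians of -0.58 to -0.36. Of all 12460 genes in polysomal RNA, DESeq2 called 822 lower and 973 higher. Single-library fits that kept both knockout total libraries called 163 to 746 genes lower and 256 to 902 higher there. Ddx54 lost its call there with either smaller pseudocount, without the filter, with quantile normalization and in edgeR, where the other 6 were kept. The values as deposited put the median log2 difference of all genes in total RNA at -0.12, against -0.01 on the common scale, with 430 higher and 1023 lower genes against 587 and 721. The members' median was then -0.0044. In polysomal RNA they gave 502 higher and 605 lower genes against 601 and 436. The causes of these changes were not tested, except that fewer libraries leave fewer degrees of freedom; with 1 library left, it was assumed to vary like the other groups.

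With the replicate number as a block in the wild type, 6 members were higher and 1 lower, and 703 genes were higher and 1243 lower in all, against 1101 and 1705 without it. Same-numbered wild-type libraries deviated together at r of 0.21, -0.22 and -0.07, and differently numbered ones at r of -0.31 to 0.26. Deviations from means of 3 libraries cannot tell whether the numbers pair the samples. For comparisons with the knockout no block was fitted, because the knockout columns carry no label number. The members had at least 121 reads in each library, and a part of depth in the calls was not tested.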
